A study of Mus musculus with 2 samples.

Results

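The regions described here are stretches of open chromatin that lie deep inside very long genes. They were found by joining overlapping DNase-seq peaks of 2 libraries and keeping the regions that held a peak of each, 53623 in all, of which 52301 were on autosomes. A region was a member when it was autosomal, kept over 1 kb away from all coding start sites that GENCODE M21 annotates, and fell wholly inside a protein-coding gene that spans at least 300 kb (symbols starting with Gm left out). There were 3929 such regions, 7.51% of the autosomal ones. For reference, 11087 regions that were as far from start sites fell wholly inside shorter genes, 18561 fell outside protein-coding genes, and 18438 lay within 1 kb of a start site (promoter regions). Membership was set by place and not by height. Only regions seen in both libraries are counted unless a value is given for one library alone, so heights and sharing describe a set that had to be called in each.

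The 2 libraries, replicate 1 and replicate 2, formed 1 group: frontal cortex tissue of male mice aged 14 days, of the strain B6CASTF1/J, an F1 hybrid. The labels describe each library as tissue of 3 males, give separate tissue samples, and list a single donor number for both, so the gap between the libraries may be partly technical. With 1 group of 2 libraries no test was possible, and all comparisons are descriptions set beside that gap. The longer peak lists held 75753 peaks in replicate 1 and 77035 in replicate 2, and the depth of sequencing behind them is unknown here. Of the promoters of marker genes, 7 of 8 for cortical excitatory neurons were open in both libraries (Slc17a7 was not), as were 3 of 6 for interneurons, 2 of 5 for astrocytes, 2 of 5 for the oligodendrocyte lineage, 1 of 4 for microglia and 0 of 4 for hindbrain and midbrain. The tissue is a mixture, and a region open in few cells cannot be told apart from one that is weakly open in many.

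DNase I cuts DNA where nucleosomes leave it exposed, and clusters of cuts away from promoters often mark enhancers, insulators or internal promoters. Genes of this length are common among those used by neurons: adhesion molecules, receptors, channels and scaffolds of the synapse carry very long introns, and transcribing one from end to end takes hours. Such introns can hold the regulatory elements of the host gene, of a neighbour, or of a shorter transcript that starts within the gene. Which gene a region acts on was not measured.

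The sequences of 6 of the tallest members are shown first, as examples of regions inside long introns. All are from the plus strand of mm10, and capitals mark matches to the motifs searched below, except in the Gphn region, where no motif matched and capitals mark the middle 31 bases. Only those strings were searched, so sites of other proteins and other spellings of a site, including that of CTCF, are not marked. A region of 240 bases at chr12:29872481-29872720, in an intron of Myt1l (a zinc finger factor of neurons), had a height of 6.31 in replicate 1 and 5.88 in replicate 2. Its capitals are a pair of RFX cores in opposite orientation and 1 CAGATG E-box. The region in Nfia (a nuclear factor I protein) at chr4:97868941-97869160 had heights of 5.40 and 6.01, and holds 1 forkhead match and 2 matches to the core that nuclear factor I proteins themselves bind. The region in Camta1 (a calmodulin-binding transcription activator) at chr4:151141621-151141840 had heights of 5.16 and 6.31 and 1 CAGATG E-box. The region in Trpm3 (a cation channel) at chr19:22916661-22916940 had heights of 6.13 and 5.18, with 1 nuclear factor I core and 1 CAGCTG E-box.
Myt1l: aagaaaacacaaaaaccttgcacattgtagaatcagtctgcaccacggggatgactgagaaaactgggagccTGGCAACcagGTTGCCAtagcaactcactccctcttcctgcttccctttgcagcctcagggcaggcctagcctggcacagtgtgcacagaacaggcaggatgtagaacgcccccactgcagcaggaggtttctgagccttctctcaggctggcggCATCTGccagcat
Nfia: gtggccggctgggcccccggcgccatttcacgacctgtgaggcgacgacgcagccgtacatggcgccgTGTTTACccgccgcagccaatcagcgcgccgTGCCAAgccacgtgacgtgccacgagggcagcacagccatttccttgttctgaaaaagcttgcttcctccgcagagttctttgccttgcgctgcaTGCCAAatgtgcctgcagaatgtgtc
Camta1: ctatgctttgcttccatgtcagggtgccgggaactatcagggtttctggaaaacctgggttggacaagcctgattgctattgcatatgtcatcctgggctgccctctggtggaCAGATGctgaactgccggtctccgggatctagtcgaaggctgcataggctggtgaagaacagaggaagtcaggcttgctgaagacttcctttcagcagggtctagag
Trpm3: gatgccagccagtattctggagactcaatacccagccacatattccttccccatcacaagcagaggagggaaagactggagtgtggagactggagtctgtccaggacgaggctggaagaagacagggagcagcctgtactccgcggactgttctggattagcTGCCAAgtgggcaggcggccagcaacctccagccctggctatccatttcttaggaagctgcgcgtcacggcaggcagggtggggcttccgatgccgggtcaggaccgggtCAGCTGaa

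The other 2 sequences differ from these in kind. The region at chr7:143296501-143296820 lies in an intron of Kcnq1, a potassium channel gene, within 1 kb of the start of Kcnq1ot1, the antisense RNA of an imprinted domain that is made from one parental copy. Its middle 300 bases are shown and contain 1 CAGATG E-box. Its heights were 8.48 in replicate 1 and 4.74 in replicate 2, a wide gap between the libraries. The region at chr12:78350861-78351120 in an intron of Gphn, which encodes the scaffold of inhibitory synapses, had heights of 7.02 and 7.20. The middle 31 bases of this region occur at 4 places in the reference assembly, so reads from these places cannot all be told apart. Near copies, and any copies that the assembly lacks, were not counted. How much of the height comes from copies elsewhere was not tested, so it may not reflect an open region in Gphn itself. This region was 1 of just 2 members in Gphn, a gene with 0.439 regions per 100 kb.
Kcnq1: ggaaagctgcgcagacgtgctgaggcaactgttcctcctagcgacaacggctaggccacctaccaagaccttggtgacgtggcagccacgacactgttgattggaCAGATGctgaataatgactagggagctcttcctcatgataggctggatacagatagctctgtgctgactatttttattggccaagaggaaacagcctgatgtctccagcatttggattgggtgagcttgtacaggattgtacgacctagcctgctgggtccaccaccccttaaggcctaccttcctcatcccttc
Gphn: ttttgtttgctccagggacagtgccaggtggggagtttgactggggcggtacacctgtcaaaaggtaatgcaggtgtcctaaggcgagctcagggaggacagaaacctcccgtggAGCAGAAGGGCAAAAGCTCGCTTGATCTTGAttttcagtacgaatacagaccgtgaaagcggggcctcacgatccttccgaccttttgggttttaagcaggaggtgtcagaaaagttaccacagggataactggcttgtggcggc

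Among all 3929 members, 3910 had a middle stretch of 31 bases found once in the assembly and 19 (0.484%) had one found at 2 or more places, against 0.965% of regions in shorter genes and 1.86% of regions outside genes. The stretch in Cmss1 was found at 11 places. Its region, 120 bases wide and also touching Filip1l, was among the 10 tallest at 4.48 and 7.94, a wide gap between the libraries. Among the 10 tallest, only this region and the one in Gphn had a stretch found at 2 or more places. The heights of both can include cuts from copies, which was not tested. The most frequent stretch, found 1145144 times, belonged to a weak region in Naaladl2 (0.287 and 0.284) and to one in Nrg1, a ligand of ErbB receptors, with 0.573 and 0.717. A stretch found 1108752 times belonged to a region in Setbp1 with 0.931 and 0.726. Only exact copies of these 31 bases were counted, so near copies and the rest of each region were not searched.

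Long genes were less densely set with open regions than shorter ones. Densities are given as regions per 100 kb of distal bases, that is, bases of the gene over 1 kb from any start site. Long genes had 1.33 per 100 kb over 296 Mb, shorter genes had 1.84 over 607.1 Mb, and the DNA outside genes had 1.33. Peaks of one library alone gave 2.13 per 100 kb in long genes for replicate 1 and 1.91 for replicate 2. The density of shared regions was nearly level in genes up to 300 kb (1.84 under 30 kb, 1.78 from 30 to 100 kb, 1.89 from 100 to 300 kb). In these classes the libraries differed: replicate 1 alone had 2.63, 2.63 and 2.85, and replicate 2 alone had 3.38, 2.66 and 2.73. In longer genes the density of shared regions was 1.54 from 300 to 600 kb, 1.14 from 600 to 1000 kb and 1.04 in the 53 genes of 1000 kb or more. From 100 to 300 kb upwards, each library on its own fell with every step in length, from 2.85 to 1.74 in replicate 1 and from 2.73 to 1.48 in replicate 2. The lower density of the longest genes was therefore present in each library and larger than the gap between them.

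**Figure D1:**
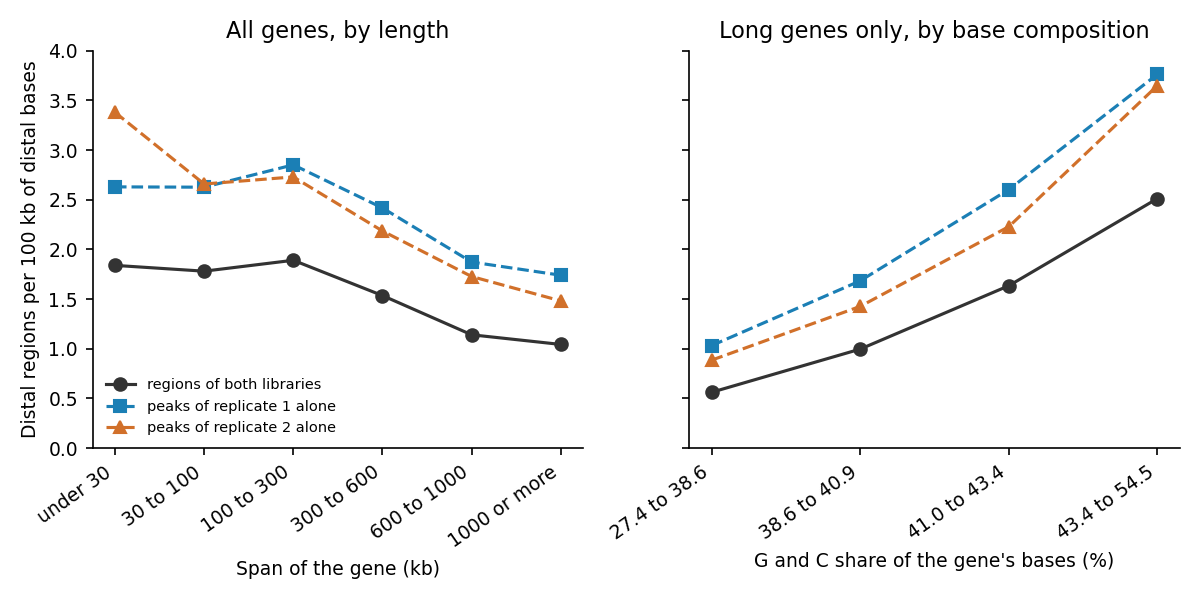
Distal open regions per 100 kb of distal bases for all autosomal protein-coding genes by span (left) and for the 531 long genes in 4 classes of base composition (right); circles are regions of both libraries, squares and triangles the peaks of each library alone. Density of shared regions goes from 1.89 at 100 to 300 kb down to 1.04 in the longest genes, and rises from 0.562 to 2.51 with the G and C share.

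Base composition separated long genes further than length did. The long genes were put into 4 classes of equal size by G and C share. In the lowest class (27.4 to 38.6%) the density was 0.562 per 100 kb, and it was 0.997, 1.63 and 2.51 in the following ones, the last at 43.4 to 54.5%. Replicate 1 alone went from 1.03 to 3.76 and replicate 2 alone from 0.885 to 3.65. Over the 531 genes, the Spearman correlation of density with G and C share was 0.765, while that of density with span was -0.16. These genes share both libraries, so the correlations are descriptions. Within these classes, genes of 600 kb or more had 0.534, 1.06, 1.58 and 2.24 regions per 100 kb and those of 300 to 600 kb had 0.614, 0.933, 1.66 and 2.64, so the longer genes were lower in 3 of the 4. The G and C share of distal bases itself fell with length, from 45.1% in genes under 30 kb to 39.3% in those of 1000 kb or more. Whether base composition affects the cutting, the sequencing or the calling of peaks was not tested.

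Nearly every long gene had at least one region. There were 531 long genes with a median span of 449.6 kb, and 513 of them (96.6%) held a member. A longer gene has more bases in which a region can lie, and this share rose with length in shorter genes too. It was 12.8% in genes under 30 kb, 48.2% from 30 to 100 kb and 83.4% from 100 to 300 kb. The median number of members was 6 per long gene (interquartile range 3 to 10). A single member was found in 33 genes and 20 or more in 24 genes. Gene densities ran from 0.295 per 100 kb at the 10th percentile through a median of 1.23 to 2.84 at the 90th. Over the 531 genes, the densities of the libraries taken alone had a Spearman correlation of 0.878, and in 395 genes they were within 1.5-fold of each other. The count includes 14 regions that lie in a pair of overlapping long genes: the readthrough gene Iqschfp with Schip1, and 2 annotated genes that both carry the symbol Arhgap26.

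**Figure D2:**
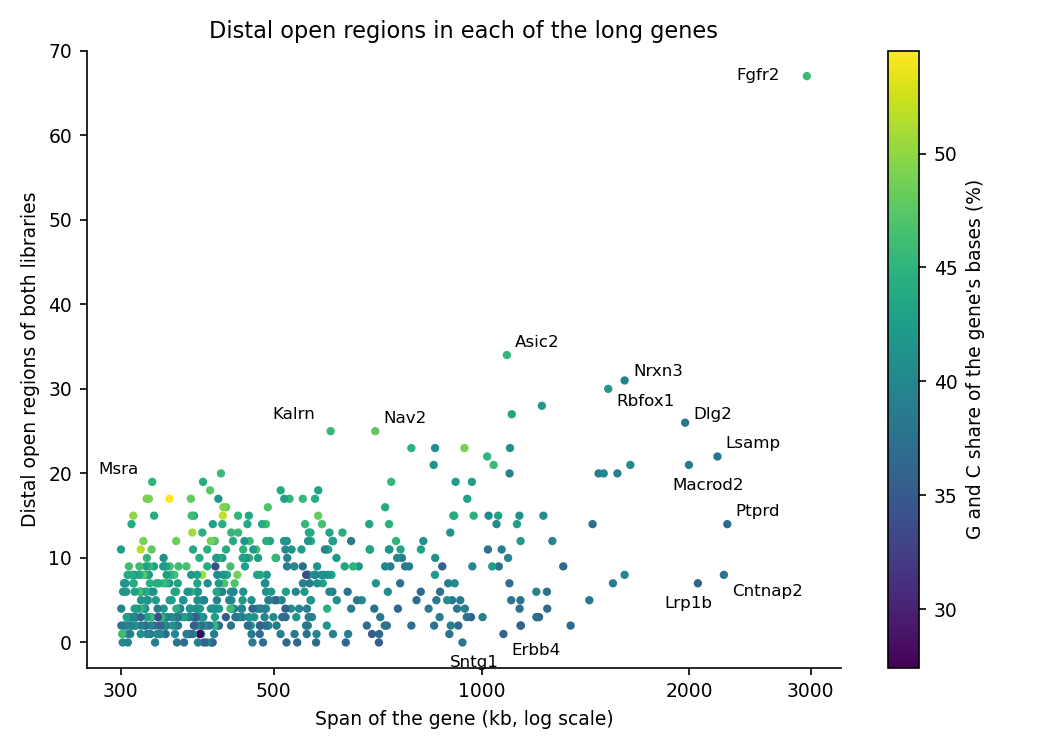
Number of distal open regions of both libraries in each of the 531 long genes against its span on a log scale, coloured by the gene's G and C share. Asic2 holds 34 regions in 1088 kb, whereas Cntnap2 holds 8 in 2245 kb and Erbb4 holds 1 in 1076 kb.

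Fgfr2 had by far the most members, 67, and is a special case. As annotated in GENCODE M21 this receptor of fibroblast growth factors spans 2961 kb (chr7:130162451-133123350, minus strand) and encloses 29 other protein-coding genes, and 39 of its 67 members touch one of these. Across all long genes, 98 members (2.49%) touched a protein-coding gene besides the long genes that hold them, and Fgfr2 supplied 39 of them. The 14 regions in overlapping long genes are not among the 98. After it came Asic2, a proton-gated sodium channel, with 34 members at 3.14 per 100 kb (50 peaks in replicate 1 alone, 43 in replicate 2), and Nrxn3, a presynaptic adhesion molecule, with 31 at 1.94. The splicing regulator Rbfox1 had 30 members, the transcriptional regulator Auts2 27 and the postsynaptic scaffold Dlg2 26. The cytoskeletal gene Nav2 and Kalrn, an exchange factor for small GTPases in dendritic spines, had 25 each, and the postsynaptic gene Anks1b had 23. The 10 genes with the most members held 316 of the 3943 pairs of a region and a long gene (8.01%).

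By density the order was different, and the leading genes were all among the shorter of the long ones. Msra, a repair enzyme for oxidised methionine, had 19 members in 333.3 kb, or 5.83 per 100 kb (10.1 in replicate 1 alone and 6.75 in replicate 2 alone). The adhesion molecule Dscaml1 had 5.39, the GABA-B receptor subunit Gabbr2 5.27, and the neuronal zinc finger factor Myt1l 4.97. Gse1 had 4.97, the mitotic checkpoint gene Mad1l1 4.91, the Notch coactivator Maml3 4.81, the zinc finger gene Hivep3 4.58, the vesicle fusion protein Vti1a 4.55 and the RNA-binding protein Msi2 4.52. Spans of these 10 genes lay between 311 kb (Vti1a) and 419.2 kb (Maml3), and their G and C shares were at or above 43.9%. Of the 6 longest genes, all but Fgfr2 were below the median density: the receptor phosphatase Ptprd had 14 members (0.622), the adhesion molecule Cntnap2 had 8 (0.358), Lsamp had 22 (1.00), the lipoprotein receptor relative Lrp1b had 7 (0.342) and Macrod2 had 21 (1.06). The G and C shares of these 5 genes were 36.4 to 38.6%.

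**Figure D3:**
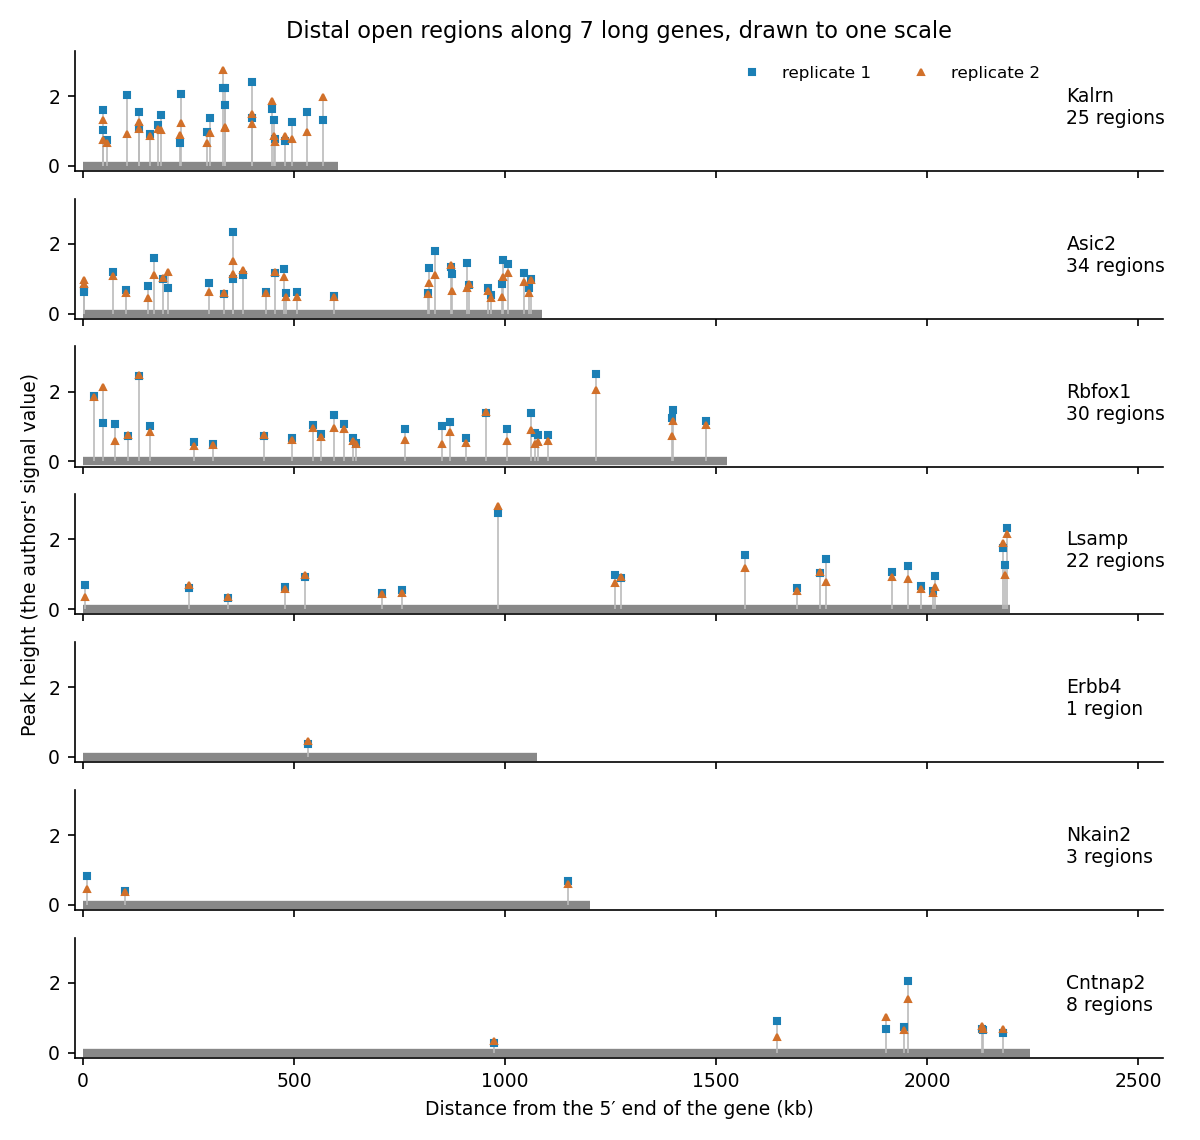
Heights in replicate 1 (squares) and replicate 2 (triangles) of every distal open region of both libraries along 7 long genes chosen to show the range, drawn from the 5′ end to one scale in kb; the grey bar is the gene. Kalrn has 25 regions over its whole span of 604.5 kb, while 6 of the 8 regions of Cntnap2 lie in the last of 5 equal parts.

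Along the gene, members were spread almost evenly, with a small surplus at the 3′ end. Each gene was divided into 5 equal parts from the 5′ end, which held 20.3, 18.8, 19.1, 19.7 and 22.1% of members, and each 19.9 to 20.1% of distal bases. The last part had the largest share in each library alone as well, 22.1% of peaks in replicate 1 and 21.7% in replicate 2, while the first had 19.4% and 20.6%. With 10 equal parts the density was lowest in part 7, at 1.18 per 100 kb, and highest in part 10, at 1.59. Genes of 100 to 300 kb were less even, with 16.2% of their regions in the first of 5 parts and 22.2% in the last. Over the 5 parts heights hardly moved: the medians were between 0.848 and 0.884 in replicate 1 and between 0.726 and 0.759 in replicate 2. With 10 parts they varied more. The medians were lowest in part 7, at 0.776 in replicate 1 and 0.667 in replicate 2, and were 0.908 and 0.817 in part 8.

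Measured in kilobases, one zone stood out. From 1 to 5 kb inside the 5′ end, the density was 4.85 per 100 kb (91 members), against 1.12 from 5 to 10 kb (29 members), 1.18 from 10 to 20 kb and 1.29 from 20 to 50 kb. Both libraries showed it, with 7.78 and 9.27 per 100 kb in the first zone and 1.73 and 1.89 in the next. At the 3′ end there was no such step: the density was 1.99 from 1 to 5 kb, 1.52 from 5 to 10 kb and 1.95 from 10 to 20 kb. From 50 to 300 kb inside either end, the density was between 1.32 and 1.60. The median distance from a member to the nearest start site of any protein-coding gene, internal start sites included, was 54.0 kb. More than 50 kb separated 52.3% of members from a start site, and more than 100 kb separated 30.4%. The farthest member was 837.6 kb away, and 8.40% lay 1 to 5 kb away.

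**Figure D4:**
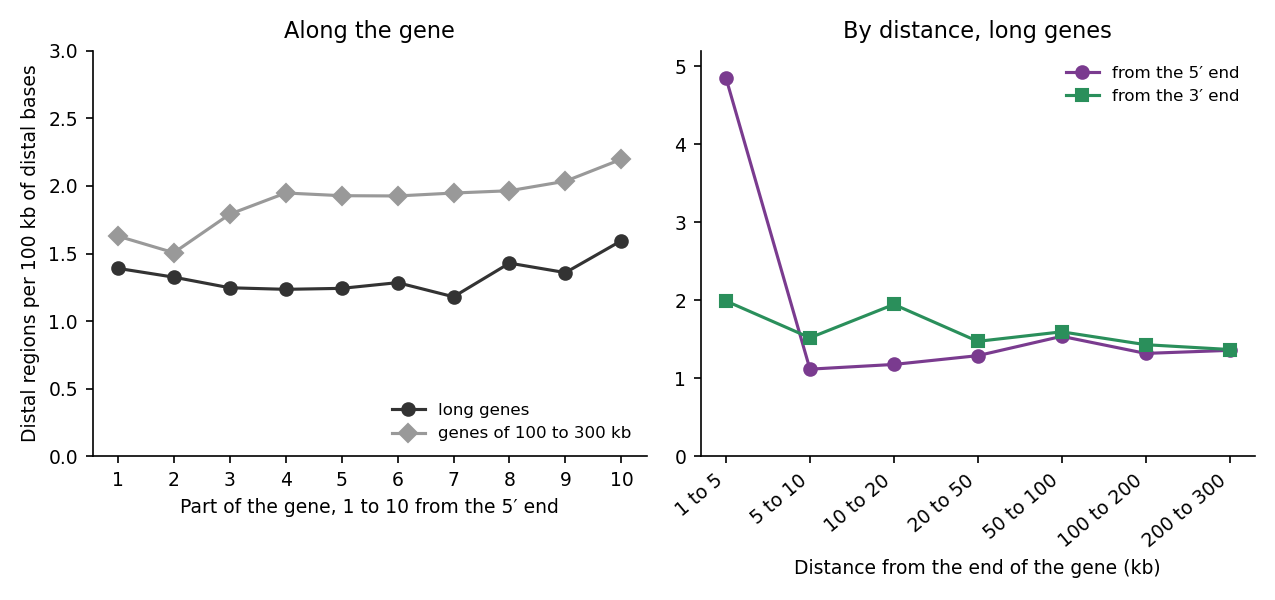
Density of distal open regions along the gene in 10 equal parts from the 5′ end (left), for long genes and for genes of 100 to 300 kb, and by distance from each end of the long genes in kb (right). The density in long genes stays between 1.18 and 1.59 per 100 kb across these parts, and reaches 4.85 only from 1 to 5 kb inside the 5′ end.

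Single genes departed from this even spread in their own ways. In Anks1b the first 434.6 kb were empty, and in Cntnap2 the first 973.8 kb (chr6:45059357-46033200). The first member of Cntnap2 after that stretch was weak, 0.275 in replicate 1 and 0.325 in replicate 2, and its tallest, at chr6:47013641-47013840, had 2.04 and 1.53. In Asic2 the members lay on both sides of an empty stretch of 223.0 kb, with 8 in the first of the 5 parts of the gene and 12 in the last. The longest stretch without a member was in Nkain2, a partner of the sodium pump, where 1047.9 kb (chr10:31742781-32790680) separated the first 2 members from the last one. In Naaladl2 the empty stretch of 989.7 kb ran from the 3′ end to a weak region (0.287 and 0.284) with the repeated middle sequence described above.

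Spacing varied widely. The median gap between neighbours in a gene was 34.0 kb (interquartile range 11.9 to 71.7 kb). Another member lay within 1 kb of 10.9% of members, within 5 kb of 23.8% and within 10 kb of 34.9%. Cut into 2591 windows of 100 kb, long genes had a mean of 1.27 members per window. No member fell in 38.7% of windows, while 103 windows (3.98%) had 5 or more and held 17.9% of all members. The fullest window had 10. These values pool genes of very different density, and whether members cluster within a gene was not tested.

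Nearly all members were intronic. Of the 3943 pairs of a member and a gene, 96.3% lay wholly in introns, which make up 98.4% of distal bases. The remaining 3.73% touched an exon of the host gene, and exons were 1.60% of distal bases, or 2.45% once the width of a region is allowed for. The first intron of the longest coding transcript, with a median length of 77.1 kb, held 20.9% of members and 20.2% of distal bases. Within 1 kb of the start of an annotated long noncoding RNA lay 74 members (1.88%), against 2.73% of regions in shorter genes and 6.57% of regions outside genes.

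Members were weaker than other distal regions inside genes. Peak height is the authors' own signal value, scaled per library, so values are compared within a library. The median height of members was 0.860 in replicate 1 and 0.734 in replicate 2, that of regions in shorter genes 1.02 and 0.942, that of regions outside genes 0.896 and 0.826, and that of promoter regions 1.77 and 1.78. Members thus stood at 0.847 of shorter-gene height in replicate 1 and 0.779 in replicate 2. The medians fell with gene length in each library, from 1.13 and 1.11 in genes under 30 kb to 0.824 and 0.684 in genes of 1000 kb or more. The tallest member, in an intron of Nol4, had 9.16 and 9.76. The remaining ones of the 10 tallest, besides those described above, were in introns of Kcnq3 (chr15:66239181-66239540), with 4.39 and 5.33, and of Gse1 (chr8:120382621-120383060), with 4.68 and 4.30. The 10th and 90th percentiles were 0.490 and 1.71 in replicate 1, and 0.417 and 1.49 in replicate 2.

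Some other readouts also set members below regions in shorter genes, not all of them in both libraries. A footprint, a short gap in the cuts that a bound protein may leave, was found in 78.7% of members in replicate 1 and 85.8% in replicate 2, against 84.2 and 90.3% of regions in shorter genes. The authors' shorter peak list had a peak of each library in 41.6% of members, 45.8% of regions in shorter genes, 50.4% of regions outside genes and 73.6% of promoter regions. Taken alone, replicate 1 had nearly equal shares in members and in shorter genes, 61.1% and 61.3%. In replicate 2 these shares were 50.6% and 56.9%. Of single peaks in long genes, 62.9% in replicate 1 and 69.9% in replicate 2 were matched in the other library, against 69.0 and 66.1% in shorter genes, 68.8 and 71.0% outside genes and 84.7 and 77.4% of promoter peaks. Peaks in long genes were thus matched less often than those in shorter genes in replicate 1 and more often in replicate 2. Across the members, the heights of the libraries had a Spearman correlation of 0.818, lower than 0.851 in shorter genes, 0.873 outside genes and 0.972 at promoters. The sparse genes also held the weaker members. With long genes in 4 classes of equal size by density, the lowest class was weakest: the median heights were 0.645 and 0.484, and 63.4% and 71.7% of members had a footprint. In the densest class the heights were 0.979 and 0.867, and the shares 83.6% and 89.6%.

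Members were richer in G and C than the genes around them. Their median G and C share was 50.4%, against 40.7% of the distal bases of long genes; regions in shorter genes had 52.8% against 43.5%. Their median width was 234 bases. Repeats, as masked in the assembly, covered a median of 2.73% of a member and 28.1% of distal bases.

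The middle 200 bases of each region were searched on both strands for 14 short motifs: CAGATG and CAGCTG (E-boxes of neuronal and other bHLH proteins), TGANTCA (AP-1), TGACGTCA (CREB), TATTTNTAG (MEF2), TTGGCA (nuclear factor I core), GTTGCCA (RFX core), ACAAAGG (SOX), TAATTA (homeodomain proteins), ATGCAAAT (POU proteins), AGGTCA (nuclear receptor core), GNGTGGGCG (EGR), AGNNGGCGC (part of the CTCF site) and TGTTTAC (forkhead proteins). The nuclear factor I and RFX cores can overlap on opposite strands. A match is a string of letters and not a measured binding site. The neuronal E-box CAGATG was in 28.6% of members, 24.0% of regions in shorter genes, 24.3% of those outside genes, 8.91% of promoter regions and 14.8% of windows of long-gene DNA of the same length. CAGCTG was in 22.7% of members and 6.92% of windows, the nuclear factor I core in 22.4% and 10.1%, AP-1 in 11.5% and 6.12%, and the RFX core in 6.31% and 1.90%. For these 4 the shares in shorter genes were close to those of members, at 22.9, 20.4, 10.2 and 5.83%. The part of the CTCF site was rarer in members (4.56%) than in regions in shorter genes (8.12%), outside genes (8.31%) and at promoters (11.0%). In windows of long-gene DNA its share was just 0.324%, and other spellings of the CTCF site were not searched. Also rarer in members than in shorter genes were the nuclear receptor core (5.45 and 7.44%), EGR (1.37 and 1.81%), SOX (3.51 and 4.37%) and CREB (0.356 and 0.577%). More frequent in members were TAATTA (3.54 and 2.78%), MEF2 (1.93 and 1.54%) and POU (1.55 and 1.27%), and forkhead was close (2.14 and 2.09%). The nuclear receptor core (10.6%) and TAATTA (8.21%) were more frequent in the windows than in members. Base composition differs between these classes, and its part in the shares was not tested.

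Grouped by function, long genes of signalling enzymes were the densest. The groups are 12 hand-made lists of known genes, and 266 of the 531 long genes are in at least one. Kinases, phosphodiesterases and regulators of small GTPases had 38 long genes with a median density of 2.08 per 100 kb, against 1.23 for all long genes, and 33 of the 38 lay above that overall median (both genes named Arhgap26 are counted). Their medians in the libraries alone were 3.41 and 2.72, against 2.07 and 1.75 overall. Kalrn led with 4.30, where replicate 1 alone had 41 peaks and replicate 2 had 48, and median heights were 1.36 and 1.03. The receptors for neurotrophins were also in this group: Ntrk2 had 3.12 per 100 kb and Ntrk3 had 2.41. The lowest in this list were Dock3, an exchange factor with 1 member at 0.307, and Prkg1, a cGMP-dependent kinase with 6 members in 1201 kb, at 0.504. The receptor kinase Erbb4, at 0.0934, was placed in another list and is not counted here. The median G and C share of the group was 42.9%, above the 40.9% of all long genes.

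**Figure D5:**
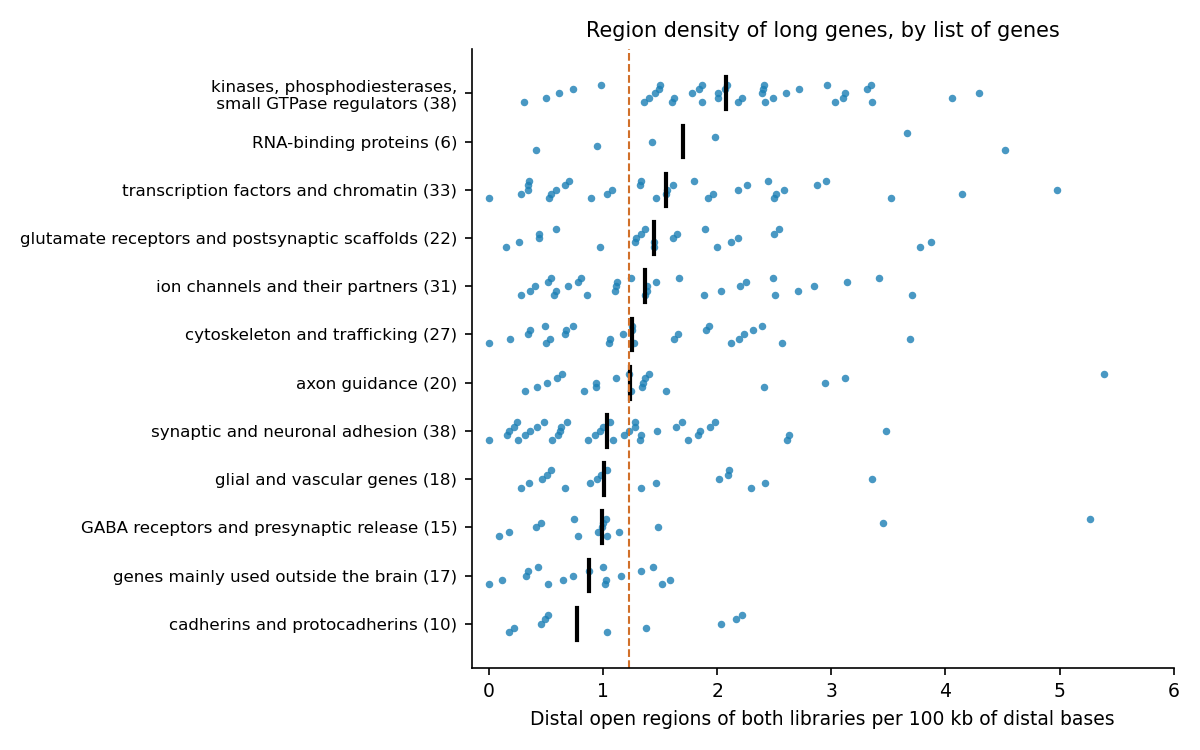
Density of distal open regions of both libraries in each long gene (points), by gene list with the number of long genes in brackets; black bars are list medians and the dashed line is the median of all long genes. The list of kinases, phosphodiesterases and small GTPase regulators has the highest median, 2.08 per 100 kb, and cadherins and protocadherins the lowest, 0.773.

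Receptors and their scaffolds divided within families. Glutamate receptors and postsynaptic scaffolds had a median of 1.45 over 22 long genes, led by the scaffold Shank2 (3.87) and the kainate receptor subunit Grik4 (3.78). Grik4 had 16 members in 426.4 kb, with 26 and 23 peaks in the libraries alone, whereas Grik2, another kainate receptor subunit, had 1 member in 693.9 kb, with 1 and 6 peaks. The AMPA receptor subunit Gria1 had 8 members (2.55) and Gria4 had 1 (0.266), although promoter regions were open in both libraries for all 4 of these genes. The denser gene of each pair was the richer in G and C, 48.0% in Grik4 against 35.6% in Grik2, and 44.7% in Gria1 against 36.8% in Gria4. These pairs were picked after their values were seen, and other glutamate receptor genes went the other way. Grm5 had 1.65 per 100 kb at 37.1% G and C, while Grm7 had 0.435 at 38.2% and Grm8 had 0.585 at 38.3%. The NMDA receptor subunits Grin2a and Grin2b had 1.90 and 2.19. GABA receptors and presynaptic release genes had a median of 0.987 over 15 genes. This hand-made list also holds Erbb4, a receptor for neuregulins on interneurons that is neither a GABA receptor nor a release protein. Densities ran from Gabbr2 (5.27) and the vesicle protein Syn3 (3.45) to Erbb4 (0.0934), which had 1 member in 1076 kb. That member had heights of 0.370 and 0.450, and Erbb4 had 3 peaks in replicate 1 alone and 8 in replicate 2 alone.

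Ion channels and their partners had a median of 1.37 over 31 genes. The M-current channel gene Kcnq3 had 3.71 per 100 kb with median heights of 1.65 and 1.18, and the calcium release channel Itpr2 had 3.42. The channel partners Dpp10 (0.278) and Kcnip4 (0.357, 4 members in 1135 kb) were the lowest of the list. RNA-binding proteins had a median of 1.70, over 6 genes only: Msi2 at 4.52 and the neuronal splicing factor Rbfox3 at 3.67 were the highest, Rbfox1 had 1.98, and Celf2 (0.945) and Khdrbs2 (0.416) were the lowest. Transcription factors and chromatin genes had a median of 1.55 over 33 genes and a wide spread. Nfib had 17 members (4.15) and Nfia 10 (2.95), while Foxp1 had 4 (0.701), St18 had 1 (0.279) and Foxp2 had none, with 5 peaks in replicate 1 alone and 0 in replicate 2 alone. In Nfib the tallest member was at chr4:82513121-82513460, with heights of 3.95 and 3.63.

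Adhesion molecules, which include many of the longest genes, were sparse. Synaptic and neuronal adhesion genes had a median span of 935.9 kb and a median density of 1.03 over 38 genes, and 15 of the 38 lay above the overall median. Sorcs2 (3.48) and Csmd2 (2.63) were the densest and Cntnap5c (1 member, 0.156) and Fstl5 (none) the sparsest. The presynaptic gene Nrxn3 had 1.94. Cadherins and protocadherins had the lowest median of any list, 0.773 over 10 genes, from Cdh4 (2.22) and Cdh23 (2.16) to Cdh18 (0.217) and Cdh12 (2 members in 1140 kb, 0.176). Axon guidance genes had a median of 1.23 over 20 genes, from the adhesion receptors Dscaml1 (5.39) and Dscam (3.12) to the secreted cue Sema3a (0.424) and the ephrin receptor Epha6 (0.316, with 741.8 kb empty). Cytoskeleton and trafficking genes had a median of 1.25 over 27 genes. Nav2 (3.69) and Ust (2.57), a sulfotransferase gene that this hand-made list includes, were the highest. Lrba (0.182) and Sntg1 (none) were the lowest.

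Genes mainly used outside the brain were sparse, while glial and vascular genes were lower than all long genes in median density and higher in pooled density. Glial and vascular genes had a median of 1.01 over 18 genes, and 8 of the 18 lay above the overall median. Of the 18, 4 were in the densest and 5 in the sparsest of the 4 density classes of long genes. Pooled over the list, their density was 1.48, against 1.33 in all long genes, and Fgfr2 supplied 67 of their 188 members. Elmo1 (3.35) and Fgfr2 (2.42) were the highest of the list, and Gpc5 (0.349) and St18 (0.279) the lowest. Genes mainly used outside the brain had a median of 0.882 over 17 genes, and 0 of the 17 were in the densest of these 4 classes of long genes. The highest of them were the ciliary dyneins Dnah11 (1.58) and Dnah9 (1.51), and the members of Dnah11 were weak, with median heights of 0.454 and 0.400. Trdn, a gene of the muscle calcium store, had none, and Spag16 of sperm flagella had 1. The median G and C shares of these lists, 41.2% and 41.1%, were no lower than that of all long genes.

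The lists were therefore also set against genes of like base composition, by taking each gene's density less the median of its G and C class. The median of this difference was 0.456 per 100 kb for kinases, phosphodiesterases and GTPase regulators (24 of 38 genes above 0), 0.386 for glutamate receptors and scaffolds (14 of 22), 0.279 for axon guidance (14 of 20) and 0.121 for adhesion molecules (25 of 38). It was -0.50 for genes mainly used outside the brain (5 of 17 above 0) and -0.23 for cadherins (2 of 10). It was -0.16 for cytoskeleton and trafficking genes (11 of 27), -0.09 for transcription factors (14 of 33) and -0.09 for glial and vascular genes (7 of 18). RNA-binding proteins had 0.237 (4 of 6), GABA receptors and release genes 0.0895 (8 of 15) and ion channels 0.0765 (16 of 31). Over all long genes 264 of 531 were above 0. Adhesion and axon guidance genes were thus sparse or average in raw density and mostly above genes of like composition, and cadherins and genes mainly used outside the brain were low on both measures. These differences are not tested, and the lists were chosen with results of these data known.

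The 18 long genes without a member were not closed at their promoters as a group. A promoter region was open in both libraries in 15 of the 18, against 483 of all 531 long genes. Of the 18, 15 had a distal peak in at least 1 library. The longest were Sntg1 (938.4 kb, 3 peaks in replicate 1 alone and 0 in replicate 2), Mgat4c (710 kb, 1 and 1), Fstl5 (635.8 kb, 3 and 0), Zfp804b (575.7 kb, 4 and 0), Foxp2 (540.6 kb, 5 and 0) and Skint5 (521.6 kb, 0 and 1). Skint5 is a gene of the skin immune system, and neither it nor its neighbour Skint6 had a promoter region. The G and C shares of the 18 genes lay between 34.8% (Brinp3) and 40.1% (Ranbp17), below the median of all long genes.

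The density of members differed less with the presence of an open promoter than with its height. The 483 long genes with a promoter region in both libraries had 1.34 members per 100 kb and the 48 without one had 1.23. In 3 classes of equal size by promoter height, the 483 genes had 1.02, 1.45 and 1.55 from the lowest to the highest. Replicate 1 alone gave 1.73, 2.28 and 2.44, and replicate 2 alone 1.45, 2.09 and 2.23. The step from the lowest to the middle class was larger than that from the middle to the highest in each library, and it was present in both.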

How the data were processed

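DNase-seq of 2 libraries of 1 group was used. Peak heights are the authors' deposited signal values, on a scale that was not stated, in whole multiples of 0.0119 in replicate 1 and 0.0083 in replicate 2. Footprint files, as deposited, hold only 0.01 where a p-value would stand, and the deposited cut-rate track lists false discovery rates (q-values) below 0.05. Assembly mm10 is named per the labels, while aligner, callers, versions and read depth are not given in the sources used here; without a depth, counting intervals were left out. Each library has its own deposited peak lists.

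The longer peak list of each library was joined at an overlap of at least 1 bp. Annotation was GENCODE M21 and sequence GRCm38, the same build. A gene's density is members per 100 kb of its bases over 1000 bp from every coding start site (93472 sites). Exact copies of 31 bases were counted over 65 sequences of the primary assembly. Calculations used Python 3.11.15 with numpy 2.4.6, scipy 1.17.1, pandas 2.3.3 and matplotlib 3.10.9, and joining and counting were tested on simulated data. No test between groups was possible.

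The members, lists and motifs were chosen with earlier results of these data known. Long genes named are the 10 with most members, the 10 densest, the 6 longest, the 6 longest without a member, and the 2 densest and the 2 sparsest of each list; regions named are the 10 tallest and the 3 longest empty stretches; 1 gene that this rule names is not reported here. Paralogs and other genes beyond this rule were chosen after their values were seen. The alternatives tried were the shorter peak list, each library alone, other limits of gene length, start site distance, overlap and height, other start sites, genes named Gm, and regions touching other genes; leaving out Fgfr2 was added after seeing the data.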

Additional observations from a re-analysis of the deposited data

How the results depend on the processing

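The 10 summary values were recomputed under 13 other settings each, 1 of them (Fgfr2 left out) chosen after seeing the data. Of 130 values, 78 stayed within the spread between the libraries (counts within 1.5-fold) and 52 moved. No setting brought the density in long genes up to that in shorter genes: the ratio was 0.720, and it ranged from 0.491 with only peaks above the median height of their library to 0.798 with genes of at least 200 kb. With the shorter peak lists there were 1639 members in 82.7% of long genes, at 0.554 per 100 kb, with 96.5% in introns and 21.7% in the first intron; their height was 0.863 of that in shorter genes (0.813 as the mean of the libraries with the longer lists), and 95.3% had a footprint (82.2% with the longer lists). With peaks above the median height there were 1461 members in 68.9% of long genes, at 0.494 per 100 kb, with 96.1% in introns, 19.9% in the first intron, a height ratio of 0.956 and a footprint in 97.6%. With genes of at least 500 kb there were 2054 members in 97.2% of genes, at 1.16 per 100 kb, a density ratio of 0.648, 19.2% in the first of 5 parts, 96.8% in introns, 19.5% in the first intron and a height ratio of 0.791. Genes of at least 200 kb gave 95.3% of genes with a member, 19.4% in the first part, 95.8% in introns, 21.8% in the first intron and a height ratio of 0.830. At 500 bp from start sites, 97.2% of genes had a member, 21.3% of members were in the first part and 95.6% in introns; at 2 kb these were 96.0%, 19.1% and 96.8%, with 20.2% in the first intron and a height ratio of 0.825. An overlap of at least 0.5 of both peaks gave 94.9% of genes, 1.05 per 100 kb and 96.5% in introns. Leaving out regions that touch another gene gave 96.0% of genes, and including genes named Gm put 24.1% of members in first introns. Using 1 library alone, there were 5660 to 6310 members in 98.3 to 98.9% of genes, at 1.91 to 2.13 per 100 kb, with 19.4 to 20.6% in the first part, 96.2 to 96.5% in introns, height ratios of 0.815 to 0.831, and a footprint in 64.9 to 74.9%. No paired analysis was possible because there was 1 group. Depth is unknown, so a region missing from 1 library may be below its limit of detection, and such peaks were a larger share in long genes than at promoters.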

Other observations

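A few members with frequent copies in the assembly were not weak. A region in Pcdh9, a protocadherin gene, had heights of 2.14 in replicate 1 and 2.83 in replicate 2, and its middle 31 bases were found at 517 places. A region in Myo3b had 1.46 and 1.40 with 27 places, and one in Ptprn2, a phosphatase-like protein of secretory vesicles, had 1.11 and 0.926 with 19 places. In all, 12 members had a middle stretch found at 10 or more places, against 20 regions in shorter genes and 94 outside genes. The heights of these regions can include cuts that belong to their copies, which was not tested.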
